A study of Mus musculus with 4 samples.

Results

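The insulin-like growth factor (IGF) family was followed in cultured mouse melanocytes that either carry or lack the aryl hydrocarbon receptor (AhR), a ligand-activated transcription factor. The 10 genes were listed by family name, with no threshold on a value: the ligands Igf1 and Igf2, the receptors Igf1r and Igf2r, and the binding proteins Igfbp2, Igfbp3, Igfbp4, Igfbp5, Igfbp6 and Igfbp7. All 10 were among the 12393 genes measured, and 23 probe sets, the array's groups of short probes against a transcript, stood for them. Each gene was read from the probe set with the highest mean signal over the 4 arrays. The cells came from the tail epidermis of female mice and were propagated in serum-free medium for melanocytes over 6 to 8 weeks. The wild-type group was 2 C57BL/6 animals, and the knockout group was 2 animals carrying AhRtm1Bra, a deletion of exon 2 of Ahr. Each array held the cells of an individual mouse, and no treatment is named for either group.

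IGF ligands are secreted peptides related to insulin. They act through the tyrosine kinase Igf1r, which signals by way of insulin receptor substrates to PI3 kinase, Akt and mTOR and by way of Grb2 and Sos to the MAP kinases. Igf2r carries Igf2 to lysosomes and so clears it, and the same protein sorts lysosomal enzymes tagged with mannose 6-phosphate. IGF binding proteins hold the ligands outside the cell, lengthen their life or keep them from the receptor, and release them when proteases cut them. In skin, Igf1 is made chiefly by dermal fibroblasts and acts on nearby melanocytes and keratinocytes as a growth and survival factor.

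AhR binds DNA together with Arnt at sites that hold the core GCGTG, so the letters upstream of the members were searched for it on both strands (CACGC is the same core read from the other strand). The search covered the 250 bases before each transcript start in the RefSeq table of GRCm38.p6, which gave 14 windows for the 10 members. The core was found in 6 windows, those of Igf1, Igf1r, Igf2r, Igfbp2, Igfbp3 and Igfbp7, and it was found in 28.2% of all 32851 windows of this length. All 6 had more G and C than the median of all windows, which was 52.4%. The Igfbp3 window had 73.2%, the Igf2r window 69.2% and the Igf1 window 52.8%. The members' windows without the core lay on both sides of that median, from 47.6% in an Igf2 window to 69.2% in that of Igfbp4. A match to the core is a description of the letters and not a binding site. The windows of Igf1 and Igfbp3, the 2 tested members with the largest differences, are printed with those of Igf2r, the tested member with the difference closest to 0, and Igfbp6, a lower member with no match. The core is in capitals, and each window reads 5′ to 3′ on the gene's strand up to the base before the start.
Igf1, chr10:87860861-87861110, plus strand: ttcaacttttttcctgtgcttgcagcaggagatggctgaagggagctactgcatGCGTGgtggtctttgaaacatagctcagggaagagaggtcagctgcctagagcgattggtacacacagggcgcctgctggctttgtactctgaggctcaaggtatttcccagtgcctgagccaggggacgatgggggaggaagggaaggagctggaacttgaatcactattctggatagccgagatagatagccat
Igfbp3, chr11:7213924-7214173, minus strand: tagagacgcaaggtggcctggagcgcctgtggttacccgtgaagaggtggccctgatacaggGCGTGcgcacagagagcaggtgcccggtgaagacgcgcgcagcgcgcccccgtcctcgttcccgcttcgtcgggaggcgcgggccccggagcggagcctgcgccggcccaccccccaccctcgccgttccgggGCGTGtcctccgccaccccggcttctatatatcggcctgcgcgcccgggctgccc
Igf2r, chr17:12769707-12769956, minus strand: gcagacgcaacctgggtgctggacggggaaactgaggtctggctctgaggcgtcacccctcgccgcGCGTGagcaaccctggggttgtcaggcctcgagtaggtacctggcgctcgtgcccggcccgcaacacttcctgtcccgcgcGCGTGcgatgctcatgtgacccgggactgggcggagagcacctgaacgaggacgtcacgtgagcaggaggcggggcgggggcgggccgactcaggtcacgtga
Igfbp6, chr15:102143936-102144185, plus strand: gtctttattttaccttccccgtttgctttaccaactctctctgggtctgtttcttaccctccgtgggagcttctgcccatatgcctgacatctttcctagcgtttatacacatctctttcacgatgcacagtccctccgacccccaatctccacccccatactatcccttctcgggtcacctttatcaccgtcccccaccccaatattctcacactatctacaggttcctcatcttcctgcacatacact
The first base of the core lay at position -196 from the start in Igf1, at -188 and -55 in Igfbp3, and at -184 and -103 in Igf2r.

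Values are linear array signals in arbitrary units, set by the authors to a common level on every array, with a trimmed mean between 500.2 and 500.3. Differences are AhR knockout minus wild type in log2(signal + 16), a scale that understates the folds of dim genes, and the SE is from limma, a linear model that borrows the spread across genes. Genes in the top 60% by mean signal were tested, 7436 in all, down to a mean of 81.1. Of the members, 7 were tested, and Igf2, Igfbp2 and Igfbp6 were too dim. Ahr itself, by its brighter probe set, read 825 and 874 in wild-type cells against 241 and 843 in knockout cells (adjusted p = 0.37); where it lies relative to exon 2 was not analysed here. Cyp1b1, the AhR-induced cytochrome P450, read 1216 and 1410 against 14.0 and 23.1, with a limma adjusted p of 4.537e-04. AhR knockout 2 stood apart in its control probe sets. Its 3′ to 5′ signal ratio for Gapdh, which rises when RNA is shortened, was 11.9, against 1.98 to 2.85 on the other arrays. For actin the same ratio was 27.98, against 6.999 to 8.712 on the other arrays.

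Igf1 was about 3-fold lower in the knockout cultures and was the member with the largest difference, but no member of the family passed the test over all genes. Among the 7 tested members, 0 had an adjusted p under 0.05 in limma and 2, Igf1 and Igfbp3, had an unadjusted p under 0.05, both lower. Over all tested genes 0.955% passed, 0.753% lower and 0.202% higher, while 12.9% were lower and 7.68% higher by unadjusted p alone. The count of members past the threshold was 2, both lower, without AhR knockout 1, where 18.3% of all tested genes passed and 11.1% were called lower. It was 1, lower, without AhR knockout 2, where 13.9% passed and 10.8% were called lower. It was 0 without wild type 1 (2.04% of all tested genes, 1.49% lower) and 0 without wild type 2 (0.269%, 0.215% lower). Of all 10 members, 7 were lower and 3 higher, and the median difference was -0.37 on the log2 scale, against 0.080 over all genes measured. Among the 7 tested the median was -0.31, against 0.0055 over all tested genes.

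**Figure D1:**
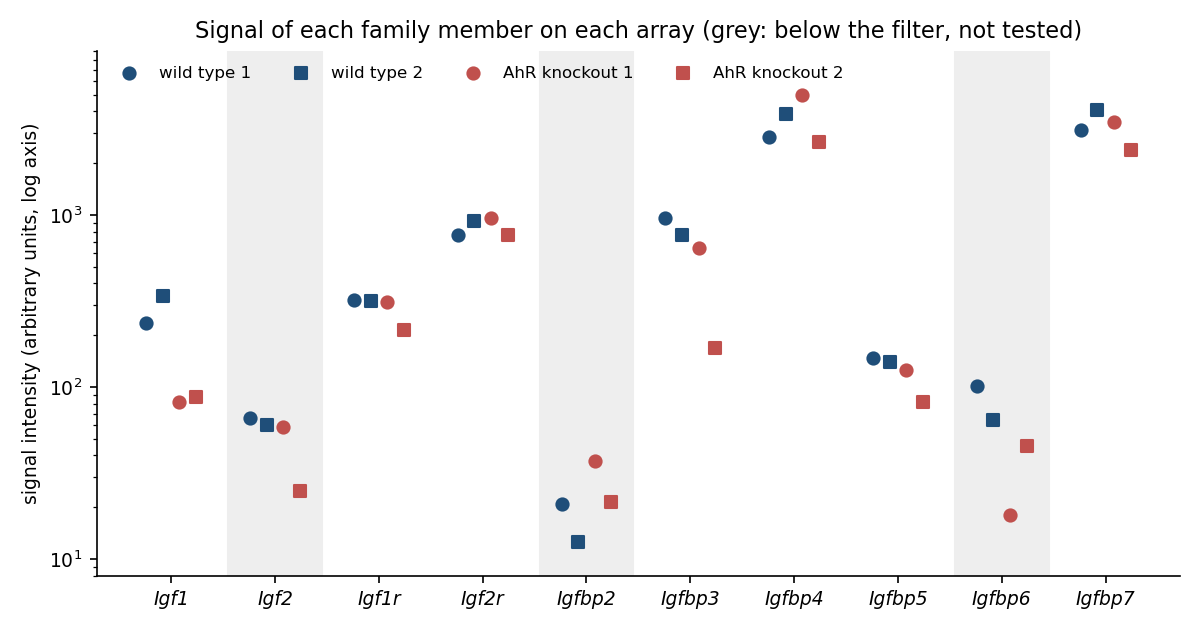
Signal of the 10 family members (x axis) on each of the 4 arrays, in arbitrary units on a log axis, with 1 point per array. Grey bands mark Igf2, Igfbp2 and Igfbp6, which lay below the signal filter. Both knockout points of Igf1 lie below both wild-type points, at 81.2 and 87.5 against 236 and 340, while those of Igfbp4 lie on either side of them.

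Of the ligands, Igf1 read 236 and 340 in the wild-type cultures, and 81.2 and 87.5 in the knockout cultures. The groups did not overlap, and the knockout arrays lay close together. The log2 difference was -1.58 ± 0.37 (SE, n = 2 and 2), 2.99-fold, with a limma adjusted p of 0.069. That p-value is just short of the threshold, and it depended on which array was present. It was 0.0042 without AhR knockout 1 and 0.0034 without AhR knockout 2, both past the threshold, and 0.088 without wild type 1 and 0.77 without wild type 2. The difference itself stayed between -1.83 and -1.33 in those fits. The array held 2 further Igf1 probe sets, and both gave lower signal in both knockout arrays. The first read 90.4 and 278 against 20.6 and 35.7, and the second 121 and 157 against 47.0 and 66.0, with log2 differences of -2.02 and -1.10. All 3 Igf1 probe sets thus separated the groups in the same direction.

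Igf2, the fetal ligand expressed from the paternal allele, was dim, and its probe set read 66.4 and 59.98 with AhR present and 58.4 and 24.7 without it. AhR knockout 1 lay within 2 units of the lower wild-type array, so the log2 difference of -0.52 came from AhR knockout 2. The other Igf2 probe set read at most 15.0 on any array and gives no usable level. With quantile normalization or with equal array medians the groups overlapped. Igf2 was not tested.

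The receptors differed little. Igf1r, the signalling receptor, read 320 and 318 in wild-type cells. AhR knockout 1 lay just below them at 311, and AhR knockout 2 lower at 214. The log2 difference was -0.29 ± 0.37 with adjusted p = 0.67, and it was -0.034 without AhR knockout 2 and -0.54 without AhR knockout 1. The groups overlapped under either other scaling. A dimmer Igf1r probe set ran the other way, at 38.2 and 49.4 in the wild-type cultures, versus 65.7 and 68.1 in the knockout cultures. Igf2r, the clearing receptor, read 768 and 926 in wild-type cells against 959 and 762 in knockout cells, with a log2 difference of 0.019 ± 0.37 and adjusted p = 0.98. Its other probe set read 455 and 277 against 433 and 366, so both overlapped. With an SE of 0.37 for both, these values do not show that the receptors were alike in the 2 groups.

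Among the binding proteins, Igfbp3 had the largest difference of the tested ones. Igfbp3 is the main carrier of IGFs in blood and is also made by endothelium and fibroblasts. It read 957 and 767 in wild-type cells, 640 in the first knockout culture and 169 in the second. Both knockout arrays were below both wild-type arrays, but they differed more from one another than AhR knockout 1 did from wild type. The log2 difference was -1.32 ± 0.55, 2.50-fold, with adjusted p = 0.21. The value rested on AhR knockout 2: without that array the difference was -0.41 with adjusted p = 0.56. Without AhR knockout 1 it was -2.24 with adjusted p = 1.457e-05, past the threshold.

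Igfbp4, which mostly inhibits IGF action and is cut by the protease Pappa, was bright and did not separate the groups. Its probe set read 2843 and 3843 with AhR present and 4974 and 2655 without it, so AhR knockout 1 was above and AhR knockout 2 below both wild-type arrays. The log2 difference was 0.14 ± 0.38 with adjusted p = 0.86. Igfbp4 had 6 probe sets, the most of any member, and AhR knockout 2 was below both wild-type arrays in 5 of them while AhR knockout 1 was above both in 3. The differences of the 6 ran from -0.54 to 0.14. The sign of Igfbp4 therefore depended on the probe set, and with the mean of its probe sets the difference was -0.037.

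Igfbp7, a low-affinity relative that binds insulin and is abundant in vessel walls, read 3128 and 4069 in the wild-type cultures, versus 3483 and 2385 in the knockout cultures. AhR knockout 1 lay between the wild-type arrays, and the log2 difference was -0.31 ± 0.35 with adjusted p = 0.63. The 2 dimmer Igfbp7 probe sets were lower in both knockout arrays. The first read 109 and 222 against 88.7 and 87.3, and the second 52.5 and 162 against 44.4 and 16.8, with log2 differences of -0.73 and -1.31. The brightest probe set and these dimmer ones thus agreed in sign but not in whether the groups overlapped.

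Igfbp5, which binds extracellular matrix, read 147 and 139 in wild-type cells, 125 in the first knockout culture and 81.3 in the second. The groups did not overlap, and the log2 difference was -0.44 ± 0.37 with adjusted p = 0.52. A dimmer Igfbp5 probe set read 48.7 and 6.83 with AhR present and 51.3 and 41.0 without it, and overlapped. Igfbp6, which prefers Igf2 to Igf1, read 101 and 64.04 in wild-type cells against 18.0 and 45.5 in knockout cells. Its log2 difference of -1.08 was the largest of the 3 dim members, and AhR knockout 1 was the lower knockout array. Igfbp2, whose gene is the neighbour of Igfbp5 on chromosome 1, read 20.9 and 12.6 with AhR present and 37.1 and 21.5 without it, all near the dim end of the arrays. It was the only member with both knockout arrays above both wild-type arrays, and under quantile normalization its groups overlapped.

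**Figure D2:**
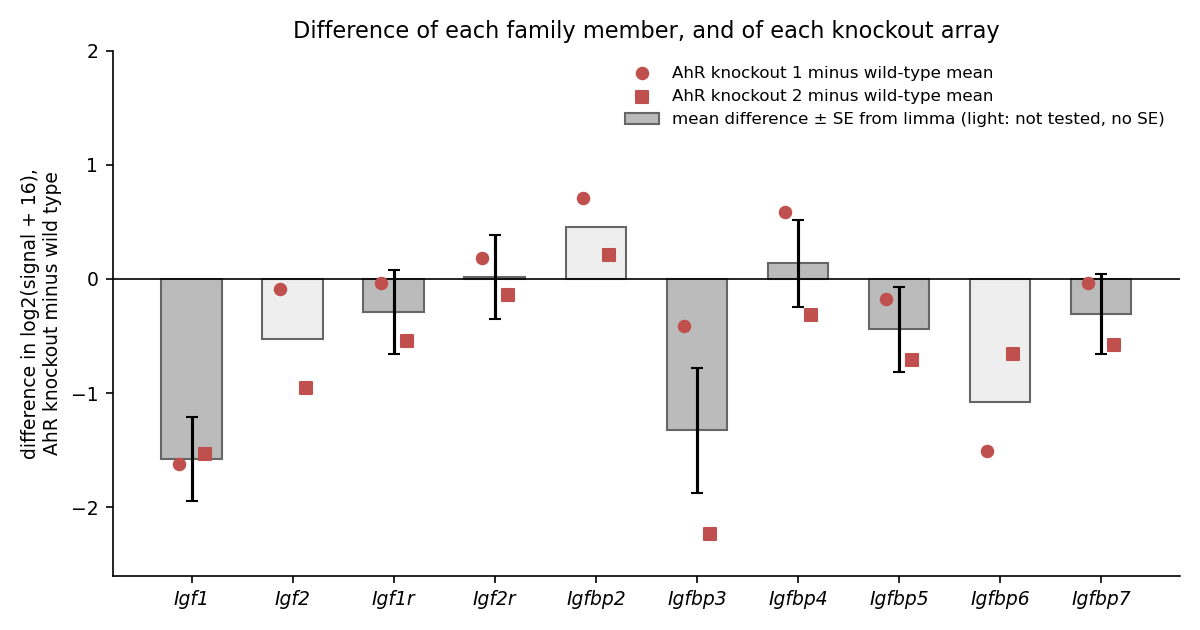
Difference of each of the 10 members in log2(signal + 16), AhR knockout minus wild type. Bars are the mean difference with the SE from limma for the 7 tested members, light bars are untested members without an SE, and points are each knockout array minus the wild-type mean. The points of Igf1 lie together at -1.62 and -1.53, while those of Igfbp3 lie apart at -0.41 and -2.24.

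The knockout arrays differed in how many members they placed below both wild-type arrays. AhR knockout 2 was below both wild-type arrays for 9 of the 10 members and above both for 1, and over all genes measured 34.4% were below and 45.5% above in that array. AhR knockout 1 was below both for 6 members and above both for 3, where 34.5% and 45.5% of all genes were. The median member difference was -0.62 for AhR knockout 2 but -0.062 for AhR knockout 1, against 0.084 and 0.078 over all genes measured. The groups did not overlap for 6 members that were lower and 1 that was higher, against 20.7% and 29.4% of all genes measured. With quantile normalization 4 members were lower and 0 higher without overlap, and with equal array medians 4 and 1. Igf1, Igfbp3, Igfbp5 and Igfbp6 were the members that stayed lower without overlap under both. AhR knockout 2 is the array with the high Gapdh ratio, and the part of that ratio in these values was not tested.

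**Figure D3:**
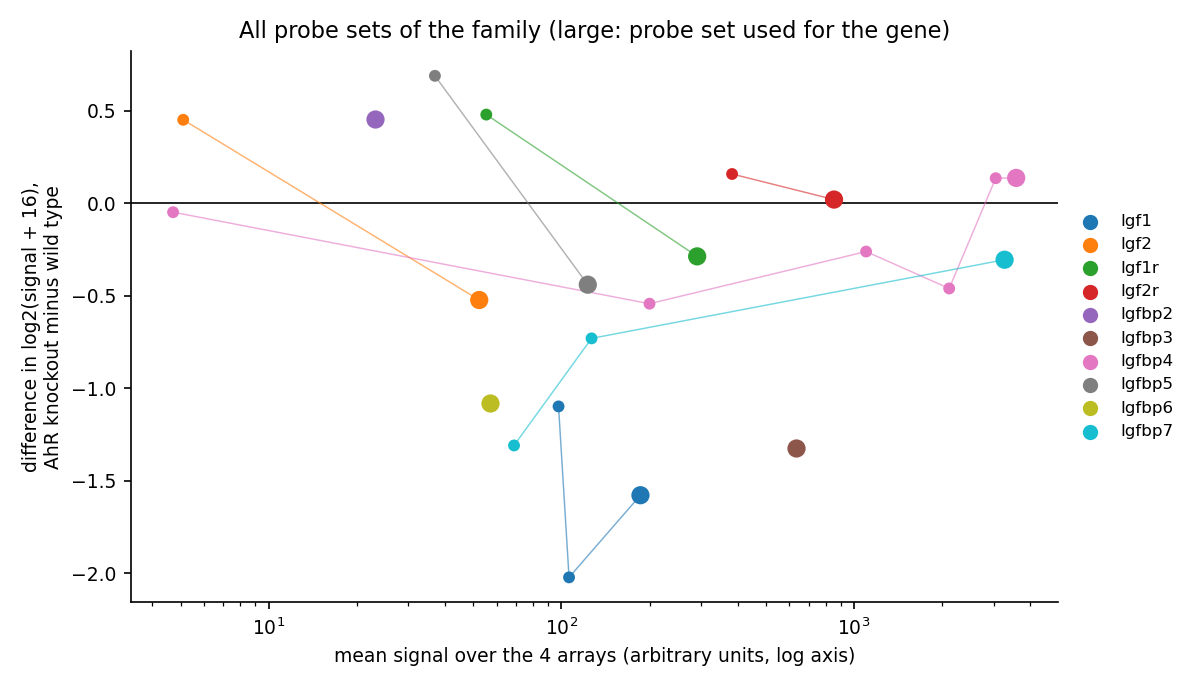
Difference in log2(signal + 16), AhR knockout minus wild type (y axis), for all 23 probe sets of the family against their mean signal over the 4 arrays in arbitrary units (x axis, log). Colours mark genes, lines join probe sets of a gene, and large points are the probe sets used; all 3 Igf1 points lie at -1.10 or lower, while those of Igf1r and Igfbp5 fall on both sides of 0.

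The proteases that release IGFs included the only gene of the pathway lists that passed. Lists of 66 pathway genes outside the 10 members were used, of which 55 were measured and 35 tested. Of the 35, 1 fell and 0 rose at an adjusted p under 0.05, and by unadjusted p alone 8 were lower and 1 higher; the median of the 35 was -0.089 on the log2 scale. The shares over all tested genes were 0.955% by adjusted p, and 12.9% lower and 7.68% higher by unadjusted p. The count of the 35 past the threshold was 4 without AhR knockout 1 and 8 without AhR knockout 2, all lower, where 11.1% and 10.8% of all tested genes were called lower (18.3% and 13.9% in either direction). It was 0 without wild type 2, where 0.269% passed. Adam12, a membrane metalloprotease known to cut Igfbp3 and Igfbp5, fell from 315 and 392 in wild type to 63.8 and 75.1 in knockout. The log2 difference was -2.11 ± 0.36, 4.31-fold, with adjusted p = 0.041. The call ended with quantile normalization (adjusted p = 0.054), without the signal filter (0.19) and without wild type 2 (0.26), while the difference stayed at -1.96 or lower in those fits. Adam12 lay below the stricter filter at the top 40% of genes. A dim second Adam12 probe set was also lower, at 25.5 and 15.6 against 2.32 and 3.06.

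The remaining genes of IGFBP cleavage did not pass. Htra1, a secreted serine protease that cuts binding proteins, read 1619 and 1155 in the wild-type cultures, versus 771 and 301 in the knockout cultures. Its log2 difference was -1.47 ± 0.47 with adjusted p = 0.14, and a second Htra1 probe set was also lower in both knockout arrays. The Htra1 difference was -2.13 without AhR knockout 1 and -0.81 without AhR knockout 2. Pappa, the protease of Igfbp4, was dim, at 13.2 and 35.1 in wild-type cells against 11.5 and 74.2 in knockout cells. Stc1, a stanniocalcin that inhibits Pappa, was below the filter but read 17.1 and 36.7 with AhR present and 85.6 and 113 without it. A dimmer Stc1 probe set overlapped between groups, at 8.19 and 28.9 against 27.9 and 30.1. Stc1 was named after its values were seen.

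Downstream of the receptor, 25 tested genes of adapters, PI3 kinase, Akt and mTOR were split, and 0 passed in limma. Of 10 adapter and feedback genes, 4 were lower and 6 higher. Sos2, an exchange factor that activates Ras, had the smallest p of them and read 645 and 971 in the wild-type cultures, versus 207 and 312 in the knockout cultures. Its log2 difference was -1.58 ± 0.40 with adjusted p = 0.080, and the difference ran from -1.87 to -1.29 with single arrays left out. Of 15 PI3 kinase, Akt and mTOR genes, 9 were lower and 6 higher. Pdpk1, the kinase that activates Akt, read 919 and 1201 in wild-type cells against 326 and 572 in knockout cells. The log2 difference was -1.25 ± 0.40 with adjusted p = 0.14. It was -0.86 without AhR knockout 1 and -1.64 without AhR knockout 2. A dimmer Pdpk1 probe set overlapped between groups with a difference of 0.25.

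The insulin relatives and the genes tied to Igf2 gave few tested values. Insr, the insulin receptor, was below the filter at 44.96 and 27.3 with AhR present and 32.1 and 60.1 without it. Igfbp1, an IGF binding protein that is not among the 10 members and whose gene lies beside Igfbp3, read at most 6.52. Ins2 read 52.8 and 40.8 in the wild-type cultures, versus 124 and 123 in the knockout cultures, a log2 difference of 1.16 ± 0.36 with adjusted p = 0.13. Its near-identical relative Ins1 had no probe set of its own here, so the signal cannot be assigned to Ins2 alone. Among 4 tested genes tied to the Igf2 locus, Ctcf, the insulator protein that governs Igf2 imprinting, had the smallest p. It read 1123 and 1411 in wild-type cells against 476 and 551 in knockout cells, with a log2 difference of -1.27 ± 0.36 and adjusted p = 0.11. That difference ran from -1.435 to -1.109 with single arrays left out. The other Ctcf probe set overlapped between groups, with a difference of 0.60. Igf2bp3, an RNA-binding protein of Igf2 transcripts named after its values were seen, lay just below the filter at 94.1 and 124 with AhR present and 45.6 and 38.5 without it.

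**Figure D4:**
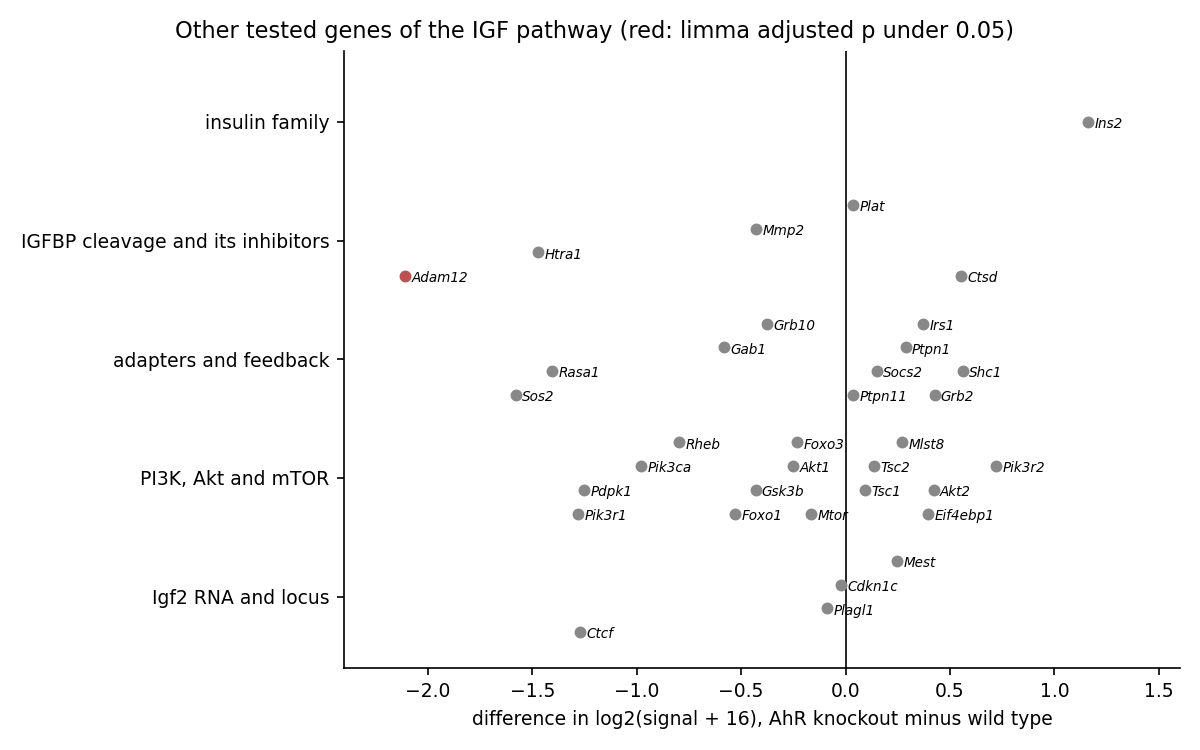
Difference in log2(signal + 16), AhR knockout minus wild type (x axis), for the 35 tested pathway genes outside the 10 members. The genes stand in the 5 lists of the y axis, with 1 point per gene. Height within a list only separates the points. Adam12, in red at -2.11, is the single gene past the adjusted p threshold, and the other 34 lie on both sides of 0.

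Markers of other cell types were also lower or higher in the knockout cultures. The cultures carried the melanocyte markers they are labelled for, with 8 of 9 measured and all 8 tested. Their summed signal was 54861 to 70575 in wild type and 83227 to 107921 in knockout. By log2 difference 7 were higher and 1 lower, the groups overlapped for 2, and 0 passed in limma. Mitf was the lower one, at 2771 and 2644 against 1668 and 2462. All 10 endothelial markers were measured and 9 tested. Of those 9, 8 were lower, 1 was higher and 0 passed in limma, while 6 lower and 1 higher had an unadjusted p under 0.05. Their summed signal was 16465 and 19453 in wild-type cells, 12190 in the first knockout culture and 5097 in the second. Emcn, a sialomucin of endothelium, was the brightest of the list at 20.4% to 52.3% of the sum, and without it the sum was 9074 and 9276 against 8869 and 4055. Cldn5, a tight junction protein, was the higher one, at 1510 and 1555 against 4688 and 2845. As ratios to the wild-type mean, the full endothelial sum was 0.917 and 1.08 on the wild-type arrays, against 0.679 and 0.284 on the knockout arrays. Without Emcn the ratios were 0.989 and 1.01, against 0.967 and 0.442. Igfbp3 stood at 1.11 and 0.889, against 0.742 and 0.196. Igf1 stood at 0.82 and 1.18, against 0.282 and 0.304. Whether either gene followed the sum was not tested.

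Of 8 fibroblast markers 4 were tested, 3 of them lower, and Col3a1, a fibrillar collagen, fell from 372 and 439 to 95.1 and 50.5 (limma adjusted p = 0.041). Their summed signal was 2676 to 5089 in wild type and 1670 to 2623 in knockout. Thy1, which read 1363 to 4063, was 70.5% to 83.2% of it, and without Thy1 the sum was 790 and 1026 against 441 and 307. Besides Col3a1, the markers Fbln2, Pdgfra and Col1a1 were lower in both knockout arrays than in both wild-type arrays. Lum, also below the signal filter, was higher in both, at 2.77 and 13.5 against 21.8 and 23.0, and 3 markers overlapped. Over all genes measured, 20.7% were lower and 29.4% higher without overlap. Fbln2 missed the threshold (adjusted p = 0.16). Pdgfra, a defining fibroblast receptor, and Col1a1 were below the signal filter, at most 82.2 and 74.4. The keratinocyte sum was 199 to 225 in wild type, 302 in AhR knockout 2 and 1401 in AhR knockout 1, with Krt15 and Trp63 in the bottom quartile of every array. Mural sums overlapped, at 2619 to 3670 against 3324 to 3847. Leukocyte sums were 1603 to 1639 in wild type and 3254 to 3748 in knockout, with Cd3e in the bottom quartile of every array. Lyz2, a lysozyme of myeloid cells, carried most of that difference at 669 and 881 against 2628 and 2776, and without it the sums overlapped, at 970 and 722 against 1120 and 478. Gene by gene, 4 of the 7 were higher and 0 lower without overlap, where 29.4% and 20.7% of all genes measured were, and 3 overlapped. C1qb and Adgre1 were among the 4, at 54.8 and 65.4 against 146 and 134, and at 57.7 and 52.4 against 97.9 and 87.6. Schwann sums were 1722 to 1957 in wild type and 3325 to 6050 in knockout. S100b set that order, at 900 and 1387 against 2867 and 5682, and without it the sums ran the other way, at 822 and 570 against 458 and 368. Ngfr, the neurotrophin receptor p75, was 737 and 480 against 345 and 233 (adjusted p = 0.19). In bulk RNA, fewer cells of a type and less RNA per cell cannot be told apart. The part of other cells in the family's values was not tested.

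**Figure D5:**
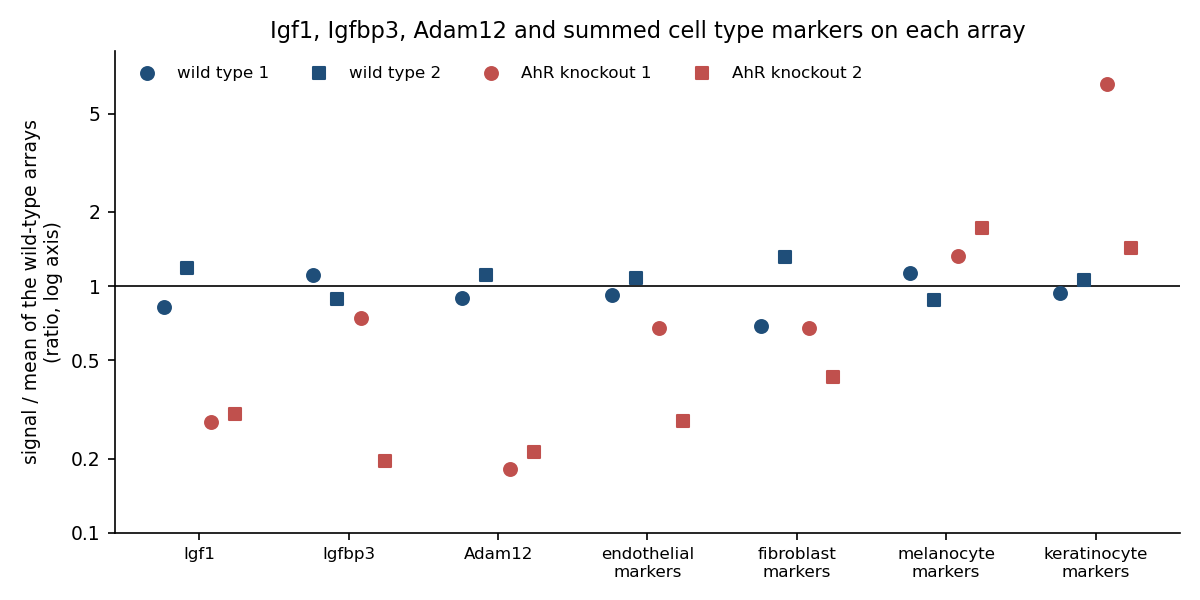
Signal on each of the 4 arrays as a ratio to the mean of the wild-type arrays (y axis, log), for Igf1, Igfbp3, Adam12 and the summed signal of 4 marker lists. Igf1 and Adam12 are low in both knockout arrays, at 0.282 and 0.304 and at 0.181 and 0.213. Igfbp3 and the endothelial and fibroblast sums are lowest in AhR knockout 2, at 0.196, 0.284 and 0.43.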

How the data were processed

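Per the labels' protocols, amplified and biotin-labelled RNA of 4 cultures was put on Affymetrix arrays of 1 colour. The authors deposited linear signal intensity from MAS5, a method named in the submitters' processing notes without a version. Scaling to a common level divides out any change that moves most transcripts one way. All 4 columns were used.

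Of 22690 probe sets, 64 were controls, 20380 had 1 gene symbol, 691 several and 1555 none in the platform annotation. Symbols were updated by gene identifier through RefSeq (GRCm38.p6), which held 20351. Values were converted to log2(signal + 16), and the top 60% of genes by mean signal were compared in R 4.3.3 with limma 3.58.1 (lmFit, then eBayes with trend); p-values were adjusted by Benjamini-Hochberg over all 7436 tested genes, and the threshold was 0.05. The method was tested on simulated data with independent noise on every array. That setting leaves out shared deviations and shortened RNA, so it does not bear on those limits here. Permuting 2 against 2 arrays cannot give a p below 0.333. Arrays carry no count depth, and their number limits the precision. Figures used matplotlib 3.10.9 in Python 3.11.15.

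The members, lists and tests were chosen with earlier results of these data known. Named were all members, the smallest p of each pathway list, every pathway gene past the threshold, and Insr, Igfbp1 and Pappa; Htra1, Stc1, Igf2bp3 and the markers named singly were added after their values were seen, as were the marker sums without the brightest gene. Alternatives were other scalings, pseudocounts of 1 and 64, other filters, the mean of probe sets, other eBayes settings, the title number as a block, a threshold of 0.10 and each array left out. Choice of probe set and filter by mean log2 signal was added after the data were seen.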

Additional observations from a re-analysis of the deposited data

Results flagged for a closer look

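The dimmer Igf1r probe set, which took no part in the comparison, was higher in both knockout arrays than in both wild-type arrays. The wild-type values were 38.2 and 49.4, the knockout values 65.7 and 68.1, and the difference was 0.48 on the log2 scale, while the brighter Igf1r probe set gave -0.29. A search of the members' unused probe sets for signal above the wild-type level picked it out, and the difference between the 2 probe sets was not tested. Its mean of 55.4 lay below the lowest tested mean of 81.1. Over all genes measured, each read from its brightest probe set, 29.4% were higher without overlap. The unused Igf2 probe set was also higher without overlap but very dim, at 1.45 and 1.54 in wild type against 2.44 and 15.0 in knockout.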

How the results depend on the processing

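The count of members past the threshold was 0 in the main setting, 2 (Igf1 and Igfbp3) with the replicate block, 1 (Igf1) at an adjusted p under 0.10, and 0 to 2 with single arrays left out. Over all genes the count was 71, and it became 26 with quantile normalization, 43 with a pseudocount of 1, 1 without the filter, 20 with the top 40% filter, 364 at an adjusted p under 0.10, 1406 with the replicate block, and 20 to 1360 with single arrays left out (152 without wild type 1, 20 without wild type 2, 1360 without AhR knockout 1 and 1031 without AhR knockout 2). For pathway genes the count was 1, and it became 0 with quantile normalization, without the filter and with the top 40% filter, 2 at an adjusted p under 0.10, 9 with the replicate block, and 0 to 8 with single arrays left out. The title numbers are shared by the groups without a stated link. The same-numbered arrays' deviations correlated at 0.35 over 7436 genes, and with only 2 pairs this does not pair the arrays. Over the same genes, AhR knockout 1 correlated at 0.9285 with wild type 1, 0.8454 with wild type 2 and 0.9153 with AhR knockout 2. AhR knockout 2 correlated at 0.8987 with wild type 1 and 0.8586 with wild type 2, and the wild-type arrays correlated at 0.9583. Of the 102 alternative values of tested members, 92 kept their direction and side of the threshold, 5 newly passed and 5 reversed. The reversals were Igf2r at -0.11 without wild type 1 and -0.14 without AhR knockout 1, and Igfbp4 at -0.037 with the mean of probe sets, -0.080 without wild type 1 and -0.31 without AhR knockout 1; with single arrays left out Igf2r ran from -0.14 to 0.18 and Igfbp4 from -0.31 to 0.59, and the cause was not tested. With an array left out, the lone array is assumed to vary like the other group. Igf2, Igfbp2 and Igfbp6 are limited by low signal.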
